A study of Danio rerio with 6 samples.

Results

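The genes described here carry out or supply DNA replication in the zebrafish embryo. They were chosen by name: 46 symbols were listed, from origin licensing through the helicase, the polymerases and the clamp loader to nucleotide and histone supply, and 45 of them stand in the deposited tables. The symbol rrm2 belongs to 2 genes, so 46 genes were followed among the 36155 in the tables, and all 46 were among the 21876 genes tested. The symbol dut is not used in the tables in lower case, and the gene listed there as DUT was kept apart from the 46.

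RNA came from the dissected tails of AB* embryos at 36 hpf, bred from prpf31+/- parents and sorted by genotyping the heads. There were 3 libraries of prpf31-/- embryos, which carry a CRISPR/Cas9-induced truncating mutation in a core splicing factor gene in all cells, and 3 libraries of prpf31+/+ siblings, with at least 30 embryos pooled per group and no other treatment. The tail holds the AGM (aorta-gonad-mesonephros) and the CHT (caudal hematopoietic tissue), the sites where blood stem cells arise and expand, together with muscle, spinal cord, skin and vessels. No source used here states whether libraries stand for separate clutches, and each p then measures only how far these samples spread, which may be technical.

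A cell copies its genome in S phase. The origin recognition complex, with Cdc6 and Cdt1, loads the MCM helicase onto DNA, Cdc45 and the GINS complex switch the helicase on, and polymerase alpha with primase lays down the primers that the replicative polymerases extend, held on DNA by the PCNA clamp. Many of these genes are targets of E2F transcription factors and are transcribed together as cells enter S phase, so their messages are high in proliferating embryonic tissue.

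prpf31 itself, on chromosome 16 of GRCz11, had 11.8, 12.7 and 11.5 FPKM (fragments counted on a gene, scaled by its length and by the size of the library) in prpf31-/- tails, against 18.4, 19.2 and 19.1 FPKM in sibling tails (log2 fold change −0.66, SE 0.0842, adjusted p = 0.00104). The libraries held 21809870 to 23789933 counts. Of all genes tested, 1220 were called higher and 983 lower in prpf31-/- tails. A call here is an adjusted p under 0.05 from edgeR's quasi-likelihood test over all 21876 genes, and every adjusted p below comes from that fit unless another is named.

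Most replication genes differed little between the groups. Of the 46, 4 rose in prpf31-/- tails, which were orc1, ccne2, rpa2 and rpa3, 2 fell, which were pola1 and rfc1, and 40 did not pass the test. The 4 that rose were 8.7% of the genes, where 5.58% of all tested genes were called higher, and the 2 that fell were 4.35%, where 4.49% of all tested genes were called lower. Among genes with a mean CPM (counts scaled to a fixed library size) of at least 5, a level that 43 of the 46 reach, the shares called were 7.65% higher and 5.73% lower. These numbers of calls are close to those of genes in general. The median log2 fold change of the 46 was −0.01, with 22 above 0 and 24 below it, and that of all tested genes was −0.00. At an unadjusted p under 0.05, 10 of the 46 were higher (21.7%, where 12.9% of all genes were) and 9 lower (19.6%, where 12.1% of all genes were). The median size of the change, regardless of sign, was 0.18 on the log2 scale for the 46 and 0.22 for all genes.

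For most of these genes the measurement also bounded the change. The median SE was 0.10 on the log2 scale, against 0.18 for all genes tested. Of the 46, 43 had a 95% interval of the log2 fold change that lay within 1 of 0, 27 of them within 0.5. Of the 21876 genes tested, 15886 had an interval within 1 of 0 and 7128 within 0.5. Those genes were not matched in level, with a median of 3.08 FPKM against 12.5 FPKM for the 46. The summed level of the 46 genes was 1364, 1235 and 1317 FPKM in prpf31-/- tails, against 1258, 1300 and 1269 FPKM in sibling tails. The sums overlapped between the groups. Libraries separated completely for 9 genes with all prpf31-/- values higher (19.6%, where 15.2% of all genes did) and for 10 with all prpf31-/- values lower (21.7%, where 15.4% of all genes did). In this bulk tissue, a change in the number of cycling cells and a change in RNA per cell cannot be told apart.

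**Figure D1:**
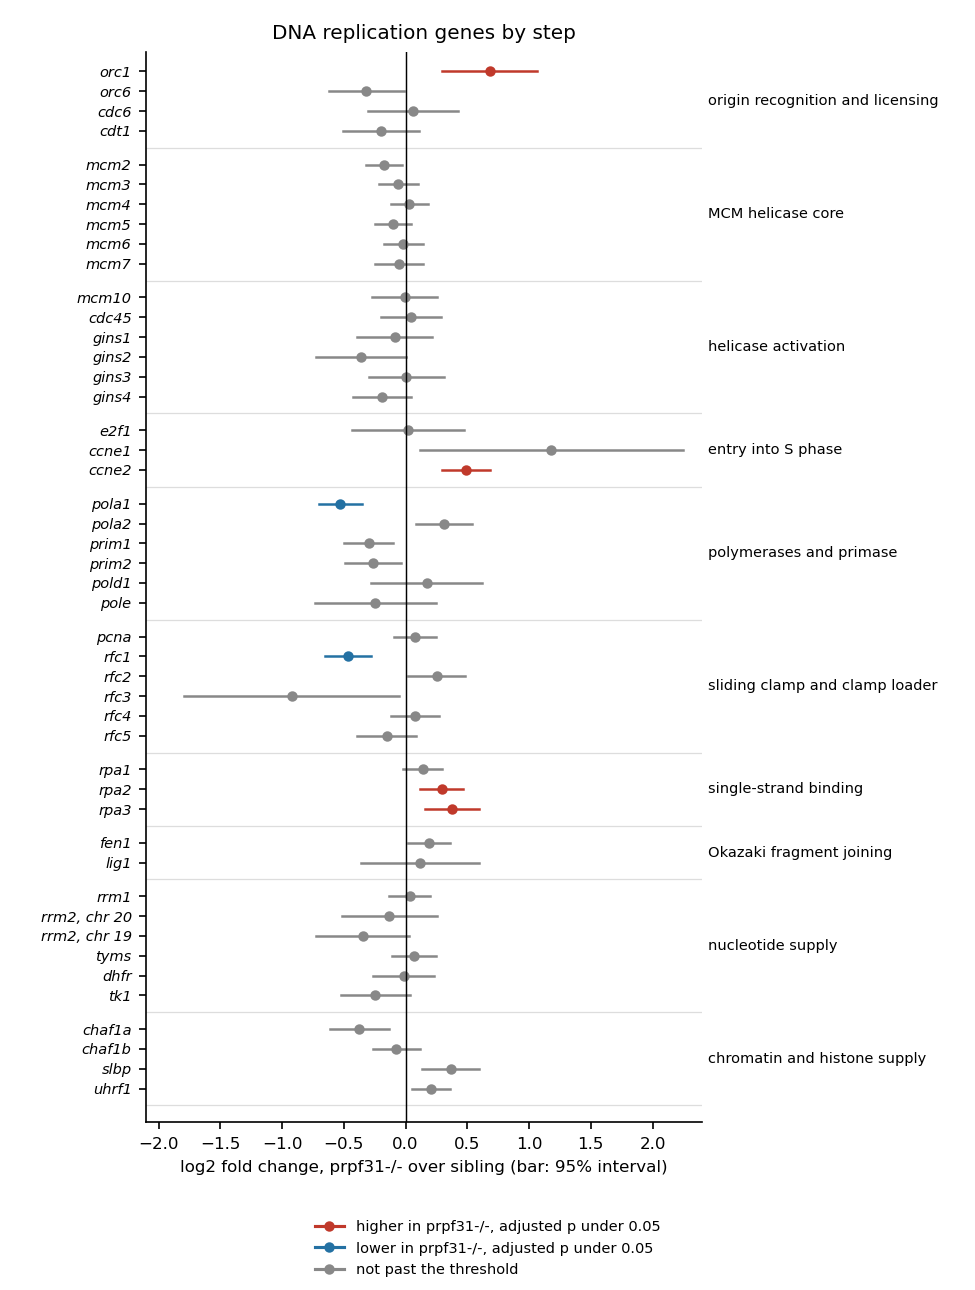
Log2 fold change of prpf31-/- over sibling tails for each of the 46 replication genes, in order of the steps of replication. Bars are the 95% interval computed from the edgeR fit. The 4 genes called higher are red, the 2 called lower are blue and the 40 others are grey, and most points lie close to the line at 0.

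**Figure D2:**
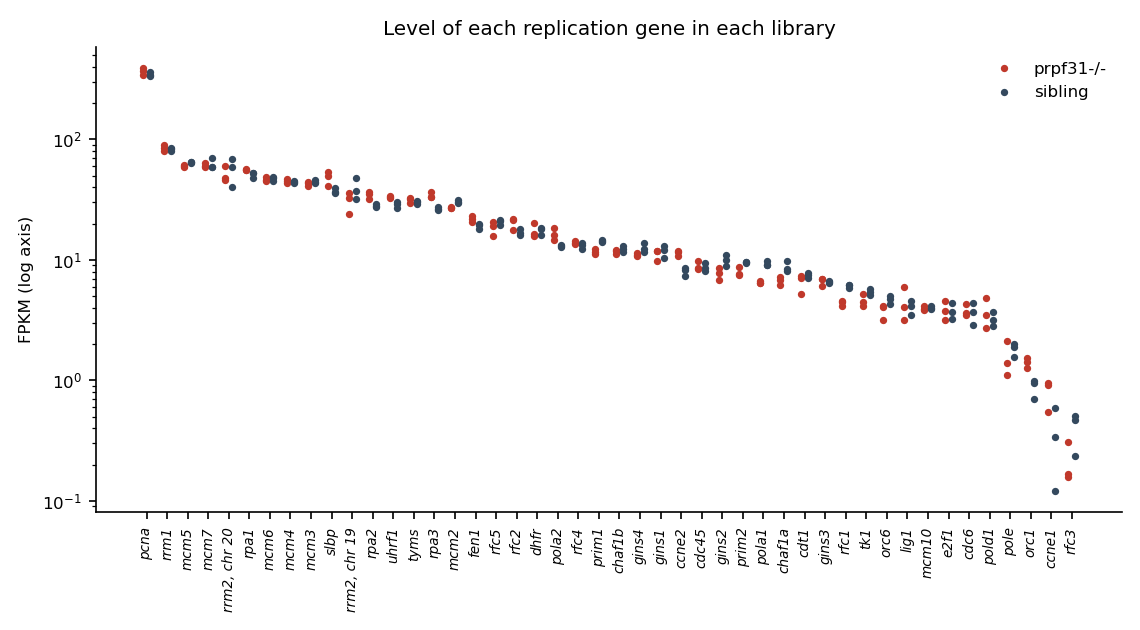
FPKM of each of the 46 genes in each library on a log axis, with prpf31-/- libraries in red to the left of sibling libraries in dark blue, ordered by mean level. The mean levels run from 0.308 FPKM for rfc3 to 355.5 FPKM for pcna, and for 27 genes the libraries of the groups overlap.

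The genes differed far more in level from one another than between the groups. Their mean FPKM had a median of 12.5. pcna, the sliding clamp, stood highest with 389.5, 340.1 and 366.7 FPKM in prpf31-/- tails, against 332.2, 359.6 and 344.6 FPKM in sibling tails. Its groups overlapped, and its log2 fold change of 0.08 had a 95% interval of −0.09 to 0.25 (adjusted p = 0.593).

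Origin licensing held the called gene with the largest log2 fold change. orc1, which encodes the largest subunit of the origin recognition complex (chromosome 6, 33931095 to 33950917), had 1.27, 1.42 and 1.52 FPKM in prpf31-/- tails, against 0.696, 0.981 and 0.949 FPKM in sibling tails. All 3 prpf31-/- libraries lay above all 3 sibling libraries at a level that was low in both groups, with 185, 232 and 255 counts in prpf31-/- tails and 115, 156 and 152 counts in sibling tails. Its log2 fold change was 0.68 (SE 0.17, 95% interval 0.30 to 1.06, adjusted p = 0.034). The call was lost without prpf31-/- replicate 2 (adjusted p = 0.0632) or 3 (0.143) and without sibling replicate 1 (0.115), 2 (0.0623) or 3 (0.0645). orc1 shares 602 bases with prpf38a, a splicing factor gene on the other strand, whose log2 fold change was 0.59 (adjusted p = 0.103). Strand is not kept by the library kit used, reads of the shared stretch cannot be told apart, and the share of prpf38a in the orc1 value was not tested.

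The other licensing genes did not pass the test. orc6, the smallest subunit of the same complex, had 4.15, 3.14 and 4.04 FPKM in prpf31-/- tails, against 4.34, 4.76 and 4.98 FPKM in sibling tails (log2 fold change −0.32, SE 0.137, adjusted p = 0.185). Its prpf31-/- values were all the lower ones, opposite to orc1, and the gene overlaps vps35 and mylk3 on the other strand. cdt1, the loading factor with the highest level of this step, had 5.23, 7.28 and 7.06 FPKM in prpf31-/- tails, against 7.82, 7.48 and 7.11 FPKM in sibling tails (log2 fold change −0.20, adjusted p = 0.415). Only prpf31-/- replicate 1 stood well apart from the sibling values of cdt1, which shares 81 bases with aprt on the other strand (log2 fold change of aprt −1.32, adjusted p = 0.00478). For cdc6, which loads the helicase together with Cdt1, the log2 fold change was 0.06 (95% interval −0.31 to 0.42).

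The MCM helicase core had the smallest median size of change of the 10 steps, 0.06 on the log2 scale. None of its 6 genes passed the test with edgeR or DESeq2. Only 1 was lower at an unadjusted p under 0.05, where 12.1% of all genes were. The log2 fold changes of the 6 ran from −0.17 to 0.03, and all 6 of the 95% intervals lay within 0.5 of 0. mcm5, the highest of them, had 61.6, 59.2 and 59.5 FPKM in prpf31-/- tails, against 64.4, 64.1 and 65.0 FPKM in sibling tails (log2 fold change −0.11, SE 0.0652, adjusted p = 0.359). mcm2 had 26.8, 27.3 and 26.9 FPKM in prpf31-/- tails, against 29.8, 30.1 and 31.2 FPKM in sibling tails (log2 fold change −0.17, SE 0.0656, adjusted p = 0.133). Both had every prpf31-/- value below every sibling value, by a margin that did not survive adjustment. mcm3, mcm4, mcm6 and mcm7 overlapped between the groups. Since the subunits form a ring with 1 copy of each, their relative levels were also compared: the highest of the 6 in FPKM was 2.27 ± 0.0941 times the lowest in prpf31-/- tails and 2.19 ± 0.147 times in sibling tails (SD, n = 3 each).

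The factors that switch the helicase on did not pass the test either, with 0 of 6 called by edgeR or DESeq2. Here 1 gene was lower at an unadjusted p under 0.05, where 12.1% of all genes were. That gene was gins2, a GINS subunit, with 6.79, 7.72 and 8.64 FPKM in prpf31-/- tails, against 9.96, 8.83 and 10.9 FPKM in sibling tails (log2 fold change −0.36, SE 0.163, adjusted p = 0.199). gins4, the GINS subunit whose mean FPKM was the highest of this step, had 10.7, 11.4 and 11.1 FPKM in prpf31-/- tails, against 11.7, 12.3 and 13.7 FPKM in sibling tails (log2 fold change −0.19, adjusted p = 0.298). For both, the prpf31-/- libraries were all lower and the intervals reached 0 or nearly so. gins1, gins3, cdc45 and mcm10, the last of which helps to activate the loaded helicase, had log2 fold changes of −0.09, 0.01, 0.04 and −0.01 and overlapped between the groups.

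Of the genes of S phase entry, ccne2 rose. It encodes cyclin E2, which activates Cdk2 at the start of S phase, and lies on chromosome 16 from 40575742 to 40586793. It had 11.9, 10.7 and 11.5 FPKM in prpf31-/- tails, against 7.39, 8.30 and 8.51 FPKM in sibling tails, so the groups did not overlap. The log2 fold change was 0.49 (SE 0.0862, 95% interval 0.30 to 0.68, adjusted p = 0.00661), and the call was kept under all 15 alternative settings that held the gene. Its paralog ccne1 was much lower, with 51, 33 and 56 counts in prpf31-/- tails and 36, 7 and 20 counts in sibling tails, and its log2 fold change of 1.18 had a 95% interval of 0.12 to 2.25 and an adjusted p of 0.155. e2f1, a transcription factor that drives many of the genes described here, had a log2 fold change of 0.02 with a 95% interval of −0.43 to 0.47.

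ccne2 and rpa2 share chromosome 16 with prpf31. On that chromosome 9.2% of 891 tested genes were called higher and 14.4% lower, against 5.42% and 4.07% of the 20985 genes on other chromosomes. Embryos chosen for a prpf31 genotype also share the DNA linked to it, so for these 2 genes the effect of the prpf31 mutation and that of linked sequence cannot be told apart.

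**Figure D3:**
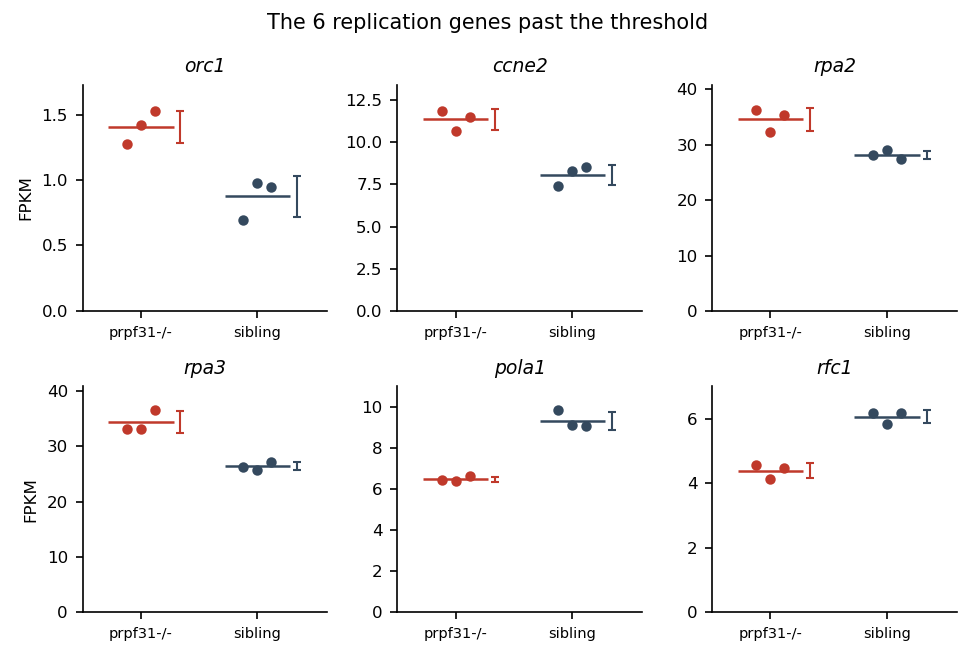
FPKM of the 6 replication genes past the threshold in each library, with prpf31-/- on the left and sibling on the right of each panel, the mean as a line and the SD (n = 3 each) as the bar beside it. In each panel the groups do not overlap, with orc1, ccne2, rpa2 and rpa3 higher and pola1 and rfc1 lower in prpf31-/- tails.

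Of the 6 polymerase and primase genes, pola1 fell and the other 5 did not pass the test. pola1, the catalytic subunit of DNA polymerase alpha (chromosome 24, 23840821 to 23932525), had 6.42, 6.39 and 6.63 FPKM in prpf31-/- tails, against 9.85, 9.10 and 9.07 FPKM in sibling tails. Its values were tight and well separated, at −0.53 on the log2 scale (SE 0.078, 95% interval −0.71 to −0.36, adjusted p = 0.00246), and the call was kept under all 16 alternatives. pola2, the accessory subunit that binds the catalytic subunit, had 18.3, 14.5 and 16.03 FPKM in prpf31-/- tails, against 13.1, 13.4 and 12.8 FPKM in sibling tails. All of its prpf31-/- values were the higher ones, but at 0.31 on the log2 scale (SE 0.101) it did not pass the test (adjusted p = 0.0835), and it did so only in the fit without prpf31-/- replicate 2, its lowest mutant value (adjusted p = 0.0402).

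The primase subunits, which make the RNA primer within the same complex, both had lower values in prpf31-/- tails without passing the test. prim1, the catalytic subunit, had 12.3, 11.6 and 11.2 FPKM in prpf31-/- tails, against 14.1, 14.5 and 14.4 FPKM in sibling tails (log2 fold change −0.30, SE 0.0879, adjusted p = 0.0608). prim2, the regulatory subunit, had 8.69, 7.48 and 7.69 FPKM in prpf31-/- tails, against 9.34, 9.56 and 9.65 FPKM in sibling tails (log2 fold change −0.26, SE 0.1003, adjusted p = 0.133). Neither overlapped between the groups, and prim1 passed the threshold in 5 of 16 alternatives, which were upper-quartile factors (adjusted p = 0.0356), the filter of 50 counts (0.0425), limma on log2(FPKM + 1) (0.045) and log2(FPKM + 0.1) (0.0462), and the fit without prpf31-/- replicate 1 (0.0493). prim1 shares 1868 bases with tfip11, a splicing factor gene on the other strand that averaged 18.98 FPKM in prpf31-/- tails and 6.12 FPKM in sibling tails (log2 fold change 1.63, adjusted p = 9.76e-07). Its part in the prim1 value was not tested.

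Within the polymerase alpha-primase complex, the proportion of pola1 to pola2 separated the groups and that of prim1 to prim2 did not. pola1 was present at 0.402 ± 0.0461 of the FPKM of pola2 in prpf31-/- tails and at 0.715 ± 0.0377 in sibling tails (SD, n = 3 each), with no overlap. prim1 over prim2 was 1.47 ± 0.0657 in prpf31-/- tails and 1.51 ± 0.0159 in sibling tails, with overlap. These pairs were looked at after the values of their members were known, so the ratios are a description with no test. For pola1 to pola2 the separation follows from the values above, with pola1 lower and pola2 higher in every prpf31-/- library.

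pold1 and pole, the catalytic subunits of the polymerases that extend the lagging and the leading strand, were low and variable. pold1 had 2.71, 4.81 and 3.46 FPKM in prpf31-/- tails, against 3.70, 2.84 and 3.19 FPKM in sibling tails (log2 fold change 0.17, 95% interval −0.28 to 0.62). pole had 1.104, 2.12 and 1.41 FPKM in prpf31-/- tails, against 1.90, 1.56 and 2.01 FPKM in sibling tails (log2 fold change −0.24, 95% interval −0.73 to 0.25). In both, prpf31-/- replicate 2 was the highest library of all and prpf31-/- replicate 1 the lowest. lig1, the ligase that seals Okazaki fragments, had the same order, with 3.14, 5.997 and 4.05 FPKM in prpf31-/- tails, against 4.56, 4.15 and 3.46 FPKM in sibling tails. In CPM, replicate 2 over replicate 1 of the prpf31-/- libraries was 1.78 for pold1, 1.92 for pole and 1.91 for lig1, while it lay between 0.742 and 1.40 for the other 40 replication genes with a mean CPM of at least 5. A ratio of at least 1.6 was found in 698 of the 13046 tested genes at that level (5.35%) and in 3 of the 43 replication genes (6.98%). Such ratios were thus not limited to replication genes. Ratios of other library pairs are not given here. These 3 genes held 161 to 490 counts per library, and a group difference within such intervals was not detectable here. Without prpf31-/- replicate 2, the log2 fold changes of pold1 and lig1 turned to −0.07 and −0.17.

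Among the clamp and its loader, rfc1 fell. It encodes the large subunit of replication factor C, which opens PCNA and places it on DNA (chromosome 1, 23243093 to 23274038). It had 4.57, 4.14 and 4.46 FPKM in prpf31-/- tails, against 6.18, 5.82 and 6.18 FPKM in sibling tails. The groups were well separated, at −0.47 on the log2 scale (SE 0.0827, 95% interval −0.65 to −0.28, adjusted p = 0.0067), and the call was kept under all 16 alternatives. rfc1 shares 4536 bases with rpl9 on the same strand, and reads that fall in both are a limit on either value. rpl9, a ribosomal protein gene, was listed at a mean of 1.71 FPKM in prpf31-/- tails and 0.501 FPKM in sibling tails (log2 fold change 1.76, adjusted p = 0.00294), opposite in sign to rfc1.

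None of the small subunits of the loader passed the test, and their log2 fold changes lay on both sides of 0. rfc2 had 21.8, 17.7 and 21.2 FPKM in prpf31-/- tails, against 16.6, 18.1 and 16.1 FPKM in sibling tails (log2 fold change 0.25, SE 0.104, adjusted p = 0.161), and rfc4 and rfc5 had log2 fold changes of 0.08 and −0.15. All 3 overlapped between the groups. rfc1 was at 0.251 ± 0.00832 of the mean FPKM of rfc2, rfc4 and rfc5 in prpf31-/- tails and at 0.360 ± 0.0169 in sibling tails (SD, n = 3 each), again without overlap and chosen after the values were seen. The annotated rfc3 gene held few reads, 17, 18 and 36 counts in prpf31-/- tails and 58, 52 and 26 counts in sibling tails. Its log2 fold change of −0.92 had a 95% interval of −1.79 to −0.05 and an adjusted p of 0.175, and its mean of 0.308 FPKM lay far under that of every other loader subunit.

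**Figure D4:**
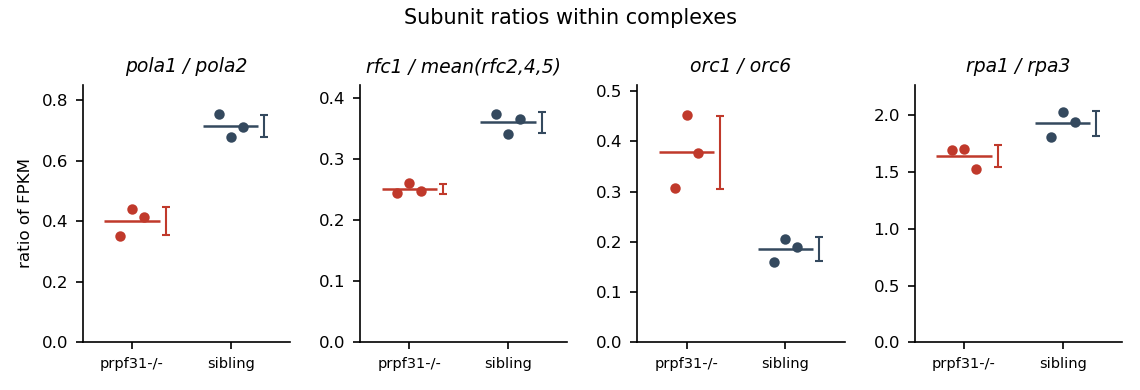
Ratios of FPKM between subunits in each library (pola1 to pola2, rfc1 to the mean of rfc2, rfc4 and rfc5, orc1 to orc6 and rpa1 to rpa3), with prpf31-/- on the left and sibling on the right of each panel, the mean as a line and the SD (n = 3 each) as the bar beside it. These 4 ratios do not overlap between the groups (pola1 to pola2 is 0.402 in prpf31-/- tails and 0.715 in sibling tails). They were chosen after the values were seen. For pola1 to pola2 and orc1 to orc6 the separation follows from the single genes, which separated the groups in opposite directions. The ratios of prim1 to prim2, of rpa1 to rpa2 and of the highest to the lowest MCM gene, not drawn, overlap. Also not drawn, chaf1a to chaf1b has a mean of 0.58 in prpf31-/- tails and 0.71 in sibling tails, without overlap. Summed rrm2 to rrm1 has a mean of 0.96 in prpf31-/- tails and 1.15 in sibling tails, also without overlap.

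Of the 3 subunits of replication protein A, the complex that coats single-stranded DNA at the fork, rpa2 and rpa3 rose and rpa1 did not pass the test. rpa3, the small subunit (chromosome 19, 25465025 to 25467185), had 33.2, 33.2 and 36.6 FPKM in prpf31-/- tails, against 26.3, 25.7 and 27.3 FPKM in sibling tails (log2 fold change 0.37, SE 0.098, adjusted p = 0.0394). rpa2, the middle subunit (chromosome 16, 4746588 to 4770233), had 36.3, 32.3 and 35.3 FPKM in prpf31-/- tails, against 28.1, 29.0 and 27.5 FPKM in sibling tails (log2 fold change 0.29, SE 0.0778, adjusted p = 0.0414). Both rose, with no overlap between the groups. rpa1, the large DNA-binding subunit, had 56.1, 56.5 and 55.9 FPKM in prpf31-/- tails, against 47.6, 52.2 and 53.0 FPKM in sibling tails, also without overlap, and did not pass the test (log2 fold change 0.14, SE 0.0708, adjusted p = 0.261).

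Summed over the 3 subunits, the level was 125.6, 122.0 and 127.9 FPKM in prpf31-/- tails, against 101.9, 106.9 and 107.7 FPKM in sibling tails. Of the 10 steps, single-strand binding was the only one in which every gene separated the groups. It has only 3 genes, of which rpa2 lies on chromosome 16. Over all tested genes, 15.2% had all prpf31-/- values higher and 15.4% had all of them lower. The calls lay close to the threshold. That of rpa3 was lost without prpf31-/- replicate 2 (adjusted p = 0.0545) or 3 (0.179) and without sibling replicate 1 (0.12), 2 (0.14) or 3 (0.0747). That of rpa2 was lost without prpf31-/- replicate 1 (0.0838) or 3 (0.164) and without sibling replicate 1 (0.129), 2 (0.111) or 3 (0.109).

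fen1, the nuclease that trims Okazaki fragments before Lig1 seals them, had 22.9, 20.7 and 22.01 FPKM in prpf31-/- tails, against 18.2, 19.7 and 19.5 FPKM in sibling tails. Its libraries did not overlap, and at 0.19 on the log2 scale (SE 0.0758) it did not pass the test (adjusted p = 0.152).

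The genes of nucleotide supply overlapped between the groups without exception. Of the 6, 0 were called (edgeR) and 0 had an unadjusted p under 0.05 (12.9% of all genes were higher and 12.1% lower). DESeq2 and the other settings did not call any of them. rrm1, the large subunit of ribonucleotide reductase, the enzyme that makes deoxyribonucleotides, had 90.2, 79.7 and 85.2 FPKM in prpf31-/- tails, against 84.9, 80.6 and 83.1 FPKM in sibling tails (log2 fold change 0.03, SE 0.0735, 95% interval −0.13 to 0.20). tyms and dhfr, which make thymidylate and recycle its folate cofactor, had log2 fold changes of 0.07 and −0.01, both with intervals within 0.5 of 0. tk1, which salvages thymidine, had 4.51, 5.17 and 4.11 FPKM in prpf31-/- tails, against 5.43, 5.12 and 5.73 FPKM in sibling tails (log2 fold change −0.24, adjusted p = 0.263). DUT, named as the enzyme that removes dUTP and counted in none of the totals, had 6.49, 5.63 and 6.16 FPKM in prpf31-/- tails, against 7.31, 7.83 and 6.90 FPKM in sibling tails. Its libraries did not overlap and it did not pass the test (log2 fold change −0.27, SE 0.0909, adjusted p = 0.0898).

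The small reductase subunit is listed as 2 genes named rrm2, and the split of reads between them differed from library to library. The copy on chromosome 20 (29492469 to 29499426) had 60.4, 47.4 and 45.9 FPKM in prpf31-/- tails, against 40.4, 68.3 and 59.4 FPKM in sibling tails. The copy on chromosome 19 (47564890 to 47571808) had 32.3, 23.9 and 36.2 FPKM in prpf31-/- tails, against 48.1, 37.0 and 32.2 FPKM in sibling tails. The share of the chromosome 20 copy was 65.1%, 66.5% and 55.9% in prpf31-/- tails, against 45.6%, 64.8% and 64.9% in sibling tails, so sibling replicate 1 alone had less than 50% from it. Whether reads of one copy were counted on the other was not tested, so each copy is uncertain. The sum of both was 82.1 ± 10.7 FPKM in prpf31-/- tails and 95.1 ± 8.95 FPKM in sibling tails (SD, n = 3 each). The sums overlapped between the groups (two-sided exact permutation test, p = 0.3, where 0.1 is the smallest possible). Fitted as 1 gene, a choice made after the data were seen, the copies had a log2 fold change of −0.22 (95% interval −0.45 to 0.02, adjusted p = 0.236).

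**Figure D5:**
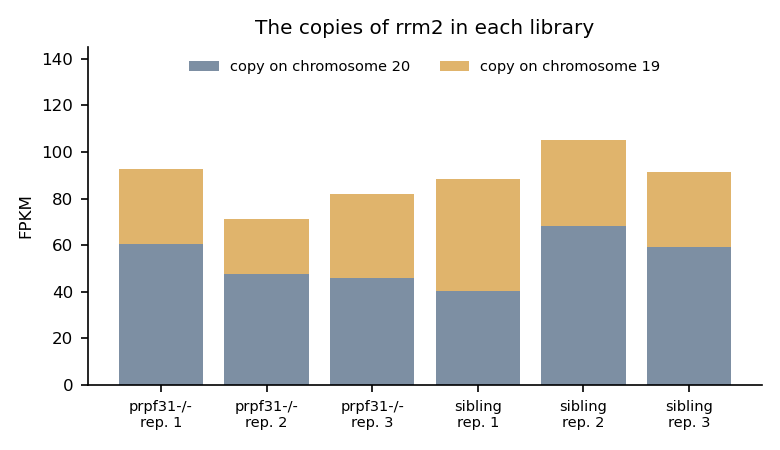
FPKM of the copies of rrm2 stacked in each library, with the 3 prpf31-/- libraries on the left and the 3 sibling libraries on the right. The bars overlap in height between the groups, at 71.4 to 92.7 FPKM in prpf31-/- tails and 88.5 to 105.3 FPKM in sibling tails, and the division between the copies changes among the libraries of a group.

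Of the 4 genes of chromatin and histone supply, 0 were called (edgeR). An unadjusted p under 0.05 was found for 2 higher and 1 lower (12.9% and 12.1% of all genes). DESeq2 called 1 higher and 1 lower, where it called 1460 of all genes higher and 1101 lower. slbp, which binds histone messages and was the highest of this step, had 53.5, 40.8 and 49.6 FPKM in prpf31-/- tails, against 35.6, 39.4 and 36.3 FPKM in sibling tails (log2 fold change 0.37, SE 0.104, adjusted p = 0.0528). The prpf31-/- values were all higher, prpf31-/- replicate 2 only just so, and slbp passed the threshold in 5 of 16 alternatives, which were DESeq2 (adjusted p = 0.0223), RLE factors (0.0498), no filter (0.0444), the filter of 50 counts (0.0415) and the fit without that library (0.0106). uhrf1, which brings DNA methylation to newly copied strands, had 33.5, 32.3 and 34.1 FPKM in prpf31-/- tails, against 29.2, 29.96 and 27.2 FPKM in sibling tails (log2 fold change 0.21, SE 0.0704, adjusted p = 0.0991). It too had no overlap and did not pass the test.

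chaf1a, the large subunit of the chromatin assembly factor that places histones on new DNA, had 7.25, 6.81 and 6.19 FPKM in prpf31-/- tails, against 9.81, 8.36 and 8.003 FPKM in sibling tails. All prpf31-/- values were lower, at −0.38 on the log2 scale (SE 0.108, adjusted p = 0.0557). It passed the threshold in 4 of 16 alternatives, which were DESeq2 (adjusted p = 0.0404), upper-quartile factors (0.0386), the filter of 50 counts (0.0447) and the fit without prpf31-/- replicate 1 (0.0436). chaf1b, its partner, overlapped between the groups (log2 fold change −0.08, 95% interval −0.27 to 0.12).

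Most replication genes outside the list did not pass the test either. Of 52 further symbols, for origin recognition, polymerase subunits, fork protection and nucleotide synthesis, 46 were matched and 45 tested. Of the 45, 2 rose, 4 fell and 39 did not pass the test, where 5.58% of all tested genes were called higher and 4.49% lower. Their median log2 fold change was −0.03. At an unadjusted p under 0.05, 5 were higher and 10 lower (12.9% and 12.1% of all genes). All prpf31-/- values were higher for 5 and lower for 11 (15.2% and 15.4% of all genes). rrm2b, an alternative small subunit of ribonucleotide reductase known in mammals as a p53 target, had 14.2, 12.4 and 11.6 FPKM in prpf31-/- tails, against 6.33, 9.12 and 8.19 FPKM in sibling tails (log2 fold change 0.69, SE 0.147, adjusted p = 0.0169). Its groups did not overlap, in contrast to rrm1 and both copies of rrm2. ctps1a, which makes CTP, also rose (log2 fold change 0.28, SE 0.0735, adjusted p = 0.0412).

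Those that fell belong to different steps. recql4, a helicase needed to start replication, had the lowest value on the log2 scale, −0.86 (SE 0.187, adjusted p = 0.0187), at 0.479, 0.765 and 0.616 FPKM in prpf31-/- tails, against 1.24, 1.02 and 1.11 FPKM in sibling tails. It shares 945 bases with rapgef5a on the other strand (log2 fold change of rapgef5a −0.73, adjusted p = 0.258). The part of rapgef5a in the recql4 value was not tested. orc4, an origin recognition subunit, stood at −0.46 on the log2 scale (adjusted p = 0.0459). mms22l, which protects stalled forks and lies on chromosome 16, stood at −0.61 (adjusted p = 0.0331). It starts at 32281200, close to prpf31 at 32082359 to 32090672. For mms22l too, the effect of the prpf31 mutation and that of linked sequence cannot be told apart. pold2, the accessory subunit of polymerase delta, had 9.15, 8.18 and 8.67 FPKM in prpf31-/- tails, against 11.9, 11.3 and 11.01 FPKM in sibling tails (log2 fold change −0.40, adjusted p = 0.0354). It shares 158 bases on the same strand with sf3a1, a splicing factor gene whose log2 fold change was 0.98 (adjusted p = 3.83e-05). Each of these 6 calls was lost without some single library. For rrm2b that was sibling replicate 1 (adjusted p = 0.0605). For recql4 it was prpf31-/- replicate 3 or sibling replicate 1 or 3 (0.0552 to 0.0856), for mms22l prpf31-/- replicate 1 or 3 or sibling replicate 1 or 2 (0.0573 to 0.137), and for ctps1a any but sibling replicate 3 (0.0559 to 0.165). The calls of orc4 (0.0838 to 0.148) and pold2 (0.0664 to 0.137) were lost without any library but prpf31-/- replicate 1.

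Some regulators above these genes had larger changes than any of the 46. Of 21 tested E2F, RB and CDK regulators, 4 rose, 1 fell and 16 did not pass the test. Over all tested genes the shares called were 5.58% higher and 4.49% lower. cdkn1a, the p21 inhibitor of cyclin-dependent kinases, had 17.6, 18.1 and 19.3 FPKM in prpf31-/- tails, against 2.51, 2.54 and 3.50 FPKM in sibling tails (log2 fold change 2.68, SE 0.156, adjusted p = 3.87e-06). rbl2, the p130 pocket protein that represses E2F targets in resting cells, had 6.78, 6.72 and 7.93 FPKM in prpf31-/- tails, against 1.25, 1.15 and 1.25 FPKM in sibling tails (log2 fold change 2.55, SE 0.102, adjusted p = 3.31e-07). In both, every prpf31-/- library lay far above every sibling library, and the calls were kept under all 16 alternatives.

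ccnd1, cyclin D1, also rose, with 49.3, 49.0 and 51.0 FPKM in prpf31-/- tails, against 29.9, 32.6 and 32.6 FPKM in sibling tails (log2 fold change 0.65, SE 0.0705, adjusted p = 0.000403). e2f7, a repressor of E2F targets, had 8.43, 8.53 and 8.35 FPKM in prpf31-/- tails, against 6.37, 5.61 and 6.43 FPKM in sibling tails (log2 fold change 0.46, SE 0.0932, adjusted p = 0.0139). cdkn1bb, a p27 inhibitor, fell (log2 fold change −0.35, SE 0.0935, adjusted p = 0.042). Neither rb1 nor rbl1, the other pocket proteins, passed the test (log2 fold changes −0.07 and 0.01), nor did cdk2 (−0.03), the kinase partner of cyclin E. Without prpf31-/- replicate 3 or sibling replicate 2 the e2f7 call was lost, and that of cdkn1bb was lost without prpf31-/- replicate 2 or 3 or sibling replicate 1 or 2, with adjusted p-values up to 0.0676 and 0.163.

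Genes of G2 and M phase, the stages after replication, were counted beside them. Of 10 tested, 0 rose with edgeR (1 with DESeq2) and 3 fell (4 with DESeq2). Of all tested genes, 5.58% were called higher and 4.49% lower. At an unadjusted p under 0.05, 2 were higher and 4 lower (12.9% and 12.1% of all genes). The higher ones were ccnb1 (log2 fold change 0.27, adjusted p = 0.0734) and ccnb2 (0.31, adjusted p = 0.16). The lower gene that edgeR did not call was mki67 (log2 fold change −0.31, SE 0.0887, adjusted p = 0.0532). Every prpf31-/- value of mki67 lay below every sibling value. All prpf31-/- values were higher for 3 of the 10 and lower for 4 (15.2% and 15.4% of all genes). Among those that fell was top2a, which untangles replicated chromosomes. It had 22.8, 25.6 and 23.4 FPKM in prpf31-/- tails, against 33.8, 31.7 and 33.6 FPKM in sibling tails (log2 fold change −0.47, SE 0.0754, adjusted p = 0.00424). For bub1, of the spindle checkpoint, the log2 value was −0.50 (adjusted p = 0.0182), and the third was 1 of 2 neighbouring genes named ube2c on chromosome 6 (−0.41, adjusted p = 0.0331). The other ube2c gene, at lower FPKM, had a log2 value of 0.29 (adjusted p = 0.269). Whether reads of one ube2c gene were counted on the other was not tested, so both values are uncertain.

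The tail is a mixture, and some cell type markers differed between the groups. Of 7 markers of spinal cord progenitors, a dividing population, 3 fell (sox3, nes and gfap) and all 7 had log2 fold changes below 0. By comparison, 4.49% of all tested genes were called lower. The summed level of the 7 was 226 to 272 FPKM in prpf31-/- tails, against 309 to 355 FPKM in sibling tails. The highest genes in that sum were gfap and sox3, both among those called. nes lies on chromosome 16 with prpf31, so for nes the effect of the mutation and that of linked sequence cannot be told apart. Of 6 tested red blood cell genes 2 fell, hbae3 and hbbe1.1, where 4.49% of all tested genes were called lower. The other 4 did not pass the test and overlapped between the groups, 1 of them with a log2 fold change above 0. Sums over that list were 1773 to 2400 FPKM in prpf31-/- tails and 2703 to 3250 FPKM in sibling tails, with hbae3 the highest gene. None of 9 fast muscle genes, 4 epidermis genes or 6 genes of blood stem and progenitor cells was called by edgeR or DESeq2. Of them 1, 0 and 1 had an unadjusted p under 0.05 (12.9% of all genes were higher and 12.1% lower). The last list summed to 12.9 to 14.5 FPKM in prpf31-/- tails and 15.2 to 15.8 FPKM in sibling tails, and its members were at low levels in both groups. Its highest genes were lmo2 and tal1, and 2 of its 6 log2 fold changes were above 0. The part of these differences in the values of the replication genes was not tested.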

How the data were processed

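RNA-seq of 3 prpf31-/- and 3 sibling tail samples at 36 hpf was used. The submitters' processing notes name CASAVA 1.8, the aligner HISAT2 2.0.5, the build GRCz11 and the counter featureCounts 1.5.0-p3. The annotation release and the strand setting are not given in the sources used here. The authors deposited raw counts per gene and FPKM per gene for each library. The deposited FPKM use a library total of 0.935 to 1.05 times the sum of the counts, which tracks the normalization factors rather than raw depth. Levels are given as deposited FPKM.

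Tests of the counts used edgeR 4.0.16 with R 4.3.3 (filterByExpr, TMM, quasi-likelihood test, no covariate, Benjamini-Hochberg over 21876 genes, threshold 0.05). The test was tried on simulated data first. The 95% intervals are of the fitted log2 fold change. Each edgeR SE was computed as the size of the log2 fold change over the square root of the test's F statistic. The interval adds and subtracts this SE times a t quantile, so both are approximations. Overlap between groups was judged on normalized CPM. Alternatives were DESeq2 1.42.0, other scaling factors (RLE, upper-quartile), the whole table unfiltered, a minimum of 50 counts in 3 libraries, a replicate block, limma 3.58.1 on log2(FPKM + 0.1) or log2(FPKM + 1) where at least 3 libraries reached FPKM 1, log2(FPKM + 1) also on unfiltered values, leaving out chromosome 16, leaving out each library, and summing the rrm2 copies. On the FPKM scale the pseudocount understates the change of low genes. Figures were drawn with matplotlib 3.10.9.

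The members and the lists were chosen with earlier results of these data known. Values per library were given for members past the threshold, for members without overlap at an unadjusted p under 0.05 and for the highest member of each step. In the lists of other replication genes and of regulators, those past the threshold were named. Other genes, among them overlapping neighbours, partner subunits and the variable genes pold1, pole and lig1, were named after their values were seen. Symbols with no match were dut among the members, clspn, donson, ticrr, pold4, top1a and top1b among the other replication genes, e2f2, e2f6 and cdc25a among the regulators and hbae1.1 among the red blood cell genes. A search for motifs in promoters was not run. The head and eye marker list is not reported here.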

Additional observations from a re-analysis of the deposited data

How the results depend on the processing

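pola1 and rfc1 stayed lower and ccne2 higher past the threshold under every alternative that held them, with adjusted p-values of 9.81e-06 to 0.0189, 0.000436 to 0.0385 and 0.00016 to 0.041. orc1 kept its call in 7 of 16 alternatives, rpa3 in 8 of 16 and rpa2 in 6 of 15. Against 4 members higher, 2 were found with upper-quartile factors, with limma on log2(FPKM + 1) without a filter and without chromosome 16, which holds the other 2. Against 2 members lower, 4 were found with upper-quartile factors and with the filter of 50 counts. Over all genes, upper-quartile factors called 1064 higher, against 1220, and 1227 lower, against 983. The filter of 50 counts called 1211 of all genes higher and 1042 lower. Without chromosome 16, 1086 genes were higher, and limma on log2(FPKM + 1) without a filter called 885 higher. Of the other replication genes, 1 was higher, against 2, with upper-quartile factors, with no filter and with limma on log2(FPKM + 1) or log2(FPKM + 0.1), and 0 with limma without a filter, which called 2 lower, against 4. That last setting called 537 of all genes lower, against 983. Leaving out 1 library gave 600 to 1215 genes higher and 332 to 990 lower, 1 to 4 members higher and 2 to 4 lower, and 0 to 2 other replication genes higher and 0 to 4 lower. No called gene changed sign. Among genes not called, the log2 fold change turned below 0 with upper-quartile factors for mcm4 (−0.0095), gins3 (−0.031), e2f1 (−0.016) and rrm1 (−0.0055). The median log2 fold change of all genes was −0.0427 under that setting, against −0.0048 in the main fit. Over the fits that left out 1 library, it crossed 0 for cdc6 (−0.087 to 0.21), mcm6 (−0.058 to 0.0026), mcm7 (−0.10 to 0.040), mcm10 (−0.045 to 0.018), cdc45 (−0.028 to 0.10), gins3 (−0.024 to 0.059), e2f1 (−0.11 to 0.15), rrm1 (−0.015 to 0.079), dhfr (−0.13 to 0.055), the chromosome 20 copy of rrm2 (−0.32 to 0.030), pold1 (−0.073 to 0.34) and lig1 (−0.17 to 0.30), the last 2 below 0 without prpf31-/- replicate 2. The causes were not tested.

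The replicate numbers share no stated origin. Deviations of same-numbered libraries from their group means had correlations of −0.07, −0.12 and −0.04, and those of other pairs ran from −0.04 to 0.11. With 3 libraries per group, such values cannot show whether same-numbered libraries share a clutch or batch. With the replicate block, 698 genes were higher and 455 lower, 1 member was higher, which was ccne2, and 0 other replication genes were called in either direction. At 21809870 or more counts per library and 3 libraries per group, low genes such as rfc3 and ccne1 and variable ones such as pole had intervals too wide to show a change under 0.5 on the log2 scale.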
